A study of Mus musculus with 12 samples.

Results

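The 36 genes described here encode aminoacyl-tRNA synthetases, 20 of them the cytosolic enzymes and 16 the mitochondrial ones whose symbols end in 2. They were taken from a list of gene names, with the brightest probe standing for each gene. All 36 had a probe, and all 36 passed the filter on dim probes that left 25321 genes in the series. Left ventricular tissue sections of C57/Bl6 mice gave the RNA for 12 arrays, 3 in each of 4 groups. The groups were CnAb1 transgenic overexpressing mice 21 days after trans aortic banding (TAC), CnAb1 transgenic overexpressing mice 21 days after sham surgery, wild-type mice 21 days after TAC, and wild-type mice 21 days after sham surgery. TAC narrows the aorta and so loads the left ventricle with pressure. CnAb1 is a splice variant of a catalytic subunit of the phosphatase calcineurin. The promoter that drives the transgene, the number of transgenic lines, the animals' ages and whether each array stands for a separate animal are not stated in the labels; the spread behind each p-value is that between arrays and may be technical.

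Each aminoacyl-tRNA synthetase joins an amino acid to its tRNA, the step that lets a codon be read. Mammalian cells hold a cytosolic set that serves the ribosomes of the cytosol and a separate set, encoded in the nucleus and imported, that serves the mitochondrial ribosomes, which make the few respiratory-chain proteins encoded by mitochondrial DNA. In the heart, with its dense mitochondria, inherited faults in several of the mitochondrial enzymes cause cardiomyopathy in humans. Many of the cytosolic genes are also known targets of ATF4, the transcription factor that the integrated stress response and amino acid shortage switch on; 12 of the 20 cytosolic genes were listed as such targets (Aars, Cars, Eprs, Gars, Iars, Lars, Mars, Nars, Sars, Tars, Wars and Yars), and the other 8 were Dars, Farsa, Farsb, Hars, Kars, Qars, Rars and Vars.

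Across the series, 0 pairs of arrays were identical, and 60.3% to 78.2% of the probes were well above background on 11 of the arrays. The second transgenic sham array had 37.2%, and its negative-control spots had a net signal of 48.6, while those of the other arrays had 15.4 to 21. Among the synthetases, 31 were well above background on all 12 arrays, Rars, Yars, Mars2 and Wars2 on 11, and Nars2 on 5; the probes of Yars and Nars2 were dim and had standard errors of 0.64 and 0.73 on the log2 scale. The arrays lay on 5 slides that were not balanced over the groups: 2 of the transgenic TAC arrays had a slide to themselves, and 1 transgenic sham array and 1 wild-type sham array were the only arrays used from theirs. The probe of Ppp3cb, the gene that encodes CnAb1, had levels of 1.47, 1.38 and 1.43 in transgenic TAC hearts, 1.40, 1.17 and 1.36 in transgenic sham hearts, 1.30, 1.21 and 1.33 in wild-type TAC hearts and 1.63, 1.56 and 1.57 in wild-type sham hearts. That probe therefore did not show an excess of Ppp3cb RNA in the transgenic groups; no label says whether it matches the transgene, so it does not check the genotype labels. All levels are log2 processed signals minus the 75th percentile of their array, and all changes are differences of such levels.

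Because ATF4 binds a composite element that it shares with C/EBP proteins, the proximal promoters were searched for it. RefSeq windows of 250 bases before to 50 bases after the transcription start (build GRCm38.p6) were matched for 13 of the 20 cytosolic genes and 14 of the 16 mitochondrial genes. The motif TGATGNAAN, on either strand, was present in 5 of the 13 cytosolic windows (38.5%), in 0 of the 15 windows of mitochondrial genes and in 3.95% of all 32851 windows. The 5 genes were Aars, Gars, Iars, Tars and Yars, all of them among the 8 listed ATF4 targets that had a window (62.5%), against 0 of the 5 other cytosolic genes with one. The stricter form TGATGCAAT, contained in the first motif, was present in the Aars and Iars windows and in 0.192% of all windows. For comparison, the motif of NRF1 (GCGC, any base, TGCGC), a regulator of many nuclear genes for mitochondrial proteins, was present on either strand in 3 of 13 cytosolic windows (23.1%), 2 of 15 mitochondrial windows (13.3%) and 4.6% of all. A match is a description of letters and not a measured binding site, and the list of ATF4 targets was chosen with earlier results of these data known. Eprs, Mars and Sars, the other listed targets with a window, had 0 matches to TGATGNAAN. Shown are the windows of 4 genes with a match whose levels are described below in detail. Matches to TGATGNAAN or its reverse complement are in capitals.
Aars, chr8:111033592-111033891, + strand: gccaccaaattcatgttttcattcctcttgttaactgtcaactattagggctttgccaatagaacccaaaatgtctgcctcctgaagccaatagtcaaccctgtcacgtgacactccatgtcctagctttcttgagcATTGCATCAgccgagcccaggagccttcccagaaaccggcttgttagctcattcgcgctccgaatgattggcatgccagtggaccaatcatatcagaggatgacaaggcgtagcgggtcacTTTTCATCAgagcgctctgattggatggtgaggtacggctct
Gars, chr6:55037751-55038050, + strand: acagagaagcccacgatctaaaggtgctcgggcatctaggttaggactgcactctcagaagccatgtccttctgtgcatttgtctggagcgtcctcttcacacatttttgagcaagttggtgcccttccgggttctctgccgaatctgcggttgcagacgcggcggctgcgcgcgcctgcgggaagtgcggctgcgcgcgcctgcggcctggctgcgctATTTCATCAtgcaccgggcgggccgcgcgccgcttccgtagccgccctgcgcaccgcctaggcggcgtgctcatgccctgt
Iars, chr13:49681880-49682179, + strand: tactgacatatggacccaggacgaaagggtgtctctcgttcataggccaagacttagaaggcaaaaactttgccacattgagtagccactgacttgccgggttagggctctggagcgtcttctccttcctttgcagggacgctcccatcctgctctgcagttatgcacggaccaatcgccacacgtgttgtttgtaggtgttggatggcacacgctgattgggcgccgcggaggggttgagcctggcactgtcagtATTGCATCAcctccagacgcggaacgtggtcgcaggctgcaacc
Tars, chr15:11399609-11399908, - strand: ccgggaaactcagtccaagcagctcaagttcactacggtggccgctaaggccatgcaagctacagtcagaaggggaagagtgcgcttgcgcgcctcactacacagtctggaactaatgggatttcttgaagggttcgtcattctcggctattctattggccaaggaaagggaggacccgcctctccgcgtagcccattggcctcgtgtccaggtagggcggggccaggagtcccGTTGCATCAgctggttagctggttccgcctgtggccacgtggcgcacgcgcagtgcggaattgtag
With the start site counted as 1, the matches began at -113 and 9 in Aars, at -31 in Gars, at 7 in Iars and at -16 in Tars; in these 4 windows they read TGATG on the opposite strand. Yars had its match at 4 on the strand of the gene.

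The first question was how pressure overload changed these enzymes in wild-type hearts, and the cytosolic and mitochondrial sets parted. Of the 16 mitochondrial enzymes, 5 fell and 0 rose at a limma adjusted p under 0.05, and all 16 changes were negative. Of the 20 cytosolic enzymes, 1 fell and 0 rose, and 12 changes were positive, against 39.4% of all genes. Among all genes tested, 12.5% fell and 8.7% rose (21.2% in either direction). At an unadjusted p under 0.05, 10 mitochondrial and 3 cytosolic enzymes were lower, against 21% of all genes, and 0 were higher, against 13%. The median change was -0.40 for the mitochondrial set, 0.10 for the cytosolic set and -0.13 for all genes.

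Among the mitochondrial enzymes, Cars2, the cysteinyl-tRNA synthetase, had levels of 1.01, 1.19 and 0.68 in wild-type TAC hearts, against 1.75, 1.68 and 1.74 in wild-type sham hearts. The groups did not overlap, and Cars2 fell by 0.77 ± 0.13 (SE; adjusted p = 0.00478). Its second probe moved alike, by -0.66 ± 0.16. Fars2, the phenylalanyl-tRNA synthetase, which works as a single chain in mitochondria whereas the cytosolic enzyme is built from the Farsa and Farsb subunits, had levels of 3.74, 3.86 and 3.38 in wild-type TAC hearts, against 4.2, 4.4 and 4.37 in wild-type sham hearts. All 3 TAC arrays lay below all 3 sham arrays, and it fell by 0.66 ± 0.13 (adjusted p = 0.00802).

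Sars2, the seryl-tRNA synthetase, had levels of -0.55, -0.34 and -0.72 in wild-type TAC hearts, against 0.49, 0.29 and 0.26 in wild-type sham hearts. This was the widest gap in the mitochondrial set, a fall by 0.88 ± 0.18 (adjusted p = 0.00794). Yars2, the tyrosyl-tRNA synthetase, had levels of 1.43, 1.52 and 0.99 in wild-type TAC hearts, against 1.84, 1.87 and 2.03 in wild-type sham hearts, and fell by 0.60 ± 0.15 (adjusted p = 0.0192). Hars2, the histidyl-tRNA synthetase, had levels of 0.29, 0.63 and 0.08 in wild-type TAC hearts, against 0.81, 0.77 and 0.87 in wild-type sham hearts, and fell by 0.48 ± 0.14 (adjusted p = 0.0312). In all 5 genes the third wild-type TAC array was the lowest and the second the highest of the group.

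The 11 mitochondrial enzymes that did not pass had changes between -0.49 and -0.10. Aars2, the alanyl-tRNA synthetase, was closest to the threshold at -0.49 ± 0.16 (adjusted p = 0.051), and Rars2, the arginyl enzyme, was nearest to 0 at -0.10 ± 0.12. Between them lay Ears2 (glutamyl), Iars2 (isoleucyl), Lars2 (leucyl), Mars2 (methionyl), Nars2 (asparaginyl), Pars2 (prolyl), Tars2 (threonyl), Vars2 (valyl) and Wars2 (tryptophanyl); Ears2 had -0.44 ± 0.19 (adjusted p = 0.126) and Mars2 -0.34 ± 0.13 (adjusted p = 0.109). In 10 of the 16 all TAC arrays lay below all sham arrays, against 29.3% of all genes. Probe choice mattered for 2 of those that did not pass: for Iars2 the second probe gave -0.52 ± 0.10 (adjusted p over all probes 0.00765) where the brighter one gave -0.29, and for Tars2 the second gave -0.46 ± 0.14 (adjusted p over all probes 0.0419) where the brighter one gave -0.36.

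Among the cytosolic enzymes the 1 that fell was Kars, the lysyl-tRNA synthetase, whose gene also makes the mitochondrial enzyme in mammals by alternative splicing. Its levels were 3.84, 3.90 and 3.68 in wild-type TAC hearts, against 4.31, 4.35 and 4.25 in wild-type sham hearts, without overlap, a fall by 0.50 ± 0.10 (adjusted p = 0.0097). Gars, the glycyl-tRNA synthetase, is the other gene that serves both compartments in mammals, and its change was 0.19 ± 0.33 (adjusted p = 0.74). The 12 listed ATF4 targets had a median change of 0.21, with 11 of 12 positive and 7 in which all TAC arrays lay above all sham arrays, against 17.5% of all genes; the largest was Cars, cysteinyl, at 0.37 ± 0.31 (adjusted p = 0.459), and 0 of 12 passed. The other 8 had a median of -0.25, with 7 of 8 negative, among them Dars, aspartyl, at -0.45 ± 0.18 (adjusted p = 0.11) and Qars, glutaminyl, at -0.27 ± 0.09 (adjusted p = 0.0726). Farsa and Farsb, the subunits of the cytosolic phenylalanyl enzyme, had changes of -0.22 and -0.29, neither of which passed, and a second probe of Farsa gave -0.41 ± 0.11 (adjusted p over all probes 0.0251).

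**Figure D1:**
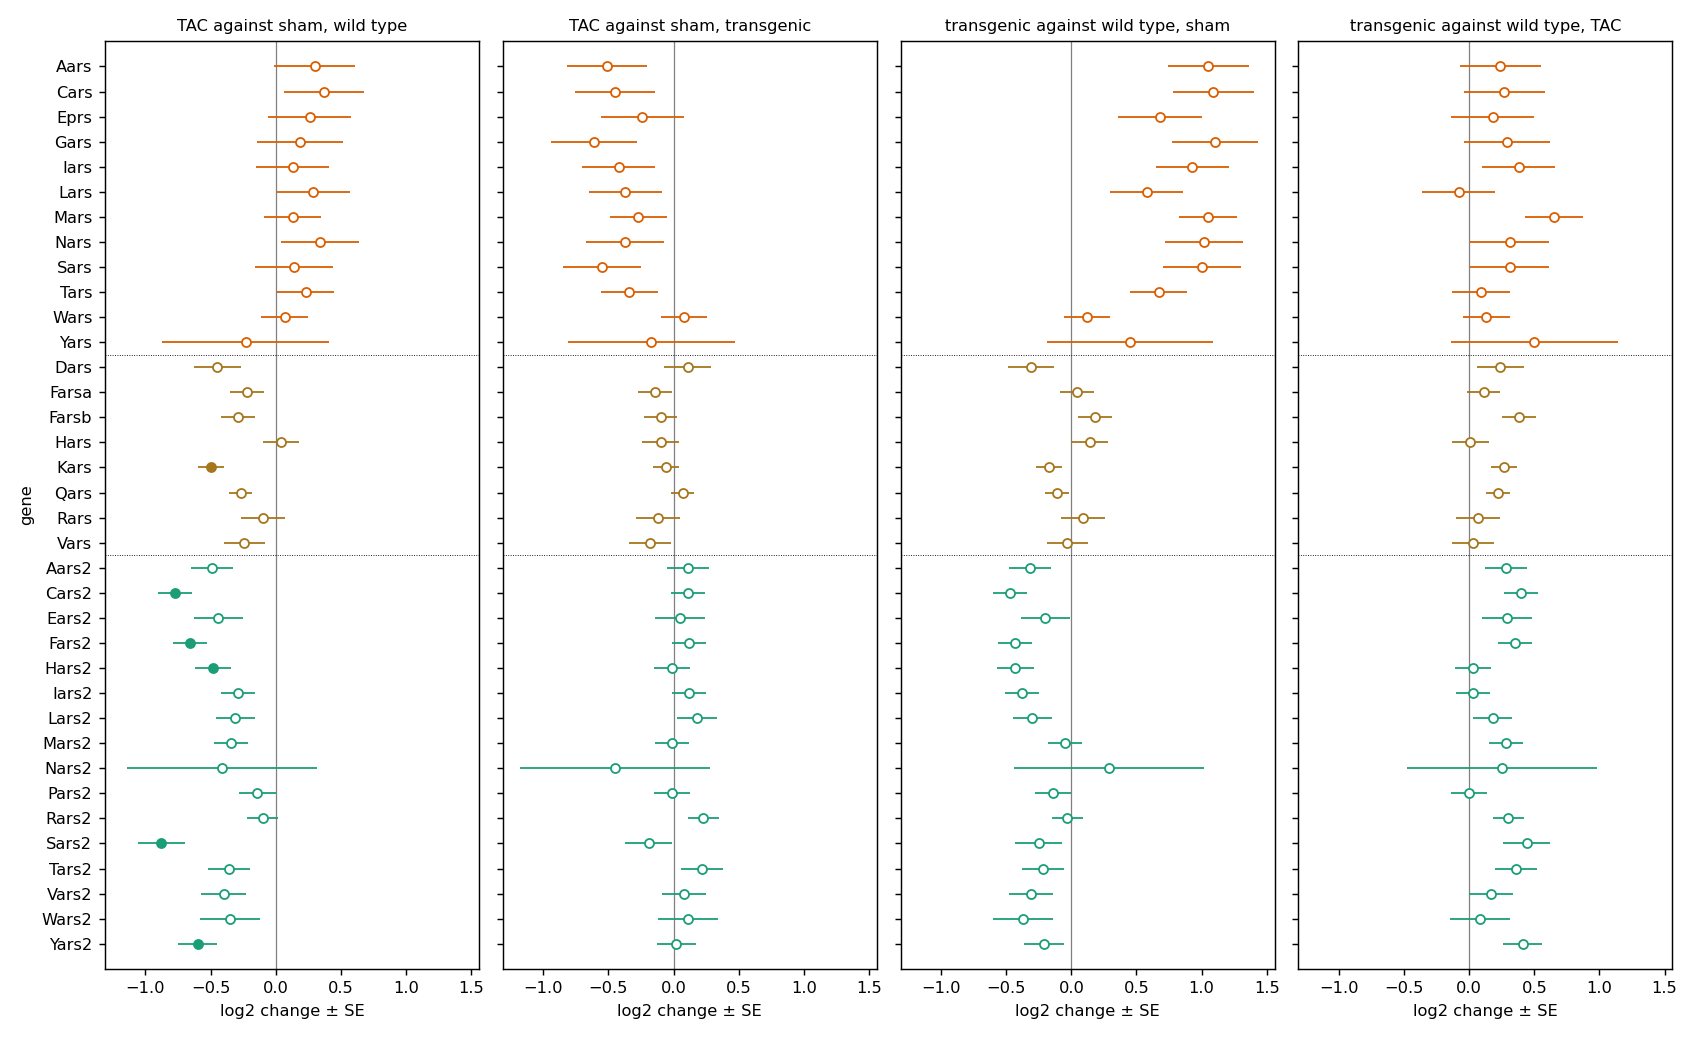
Log2 change ± SE (horizontal) of each of the 36 genes (vertical) in 4 comparisons, the group named first minus the one named second; from top to bottom the 12 cytosolic enzymes listed as ATF4 targets, the 8 other cytosolic enzymes and the 16 mitochondrial enzymes, separated by dotted lines. Filled points passed an adjusted p under 0.05 and open points did not: 1 cytosolic and 5 mitochondrial enzymes are filled for TAC in wild-type hearts and 0 in the other 3 panels.

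Cytosolic and mitochondrial genes that share a symbol apart from its ending, such as Cars and Cars2, formed 13 pairs. Fars2, Ears2 and Pars2 were left out of this and later pair counts, since Farsa, Farsb and Eprs do not share their symbols. The cytosolic change was the more positive in 12 of the 13 pairs, with a median difference of 0.52. The exception was the arginyl pair, where Rars and Rars2 both had -0.10. Cars and Cars2 differed most, 0.37 against -0.77, followed by Sars and Sars2, 0.14 against -0.88. Hars and Hars2 are neighbours in the mouse gene table, and their changes were 0.04 and -0.48.

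**Figure D2:**
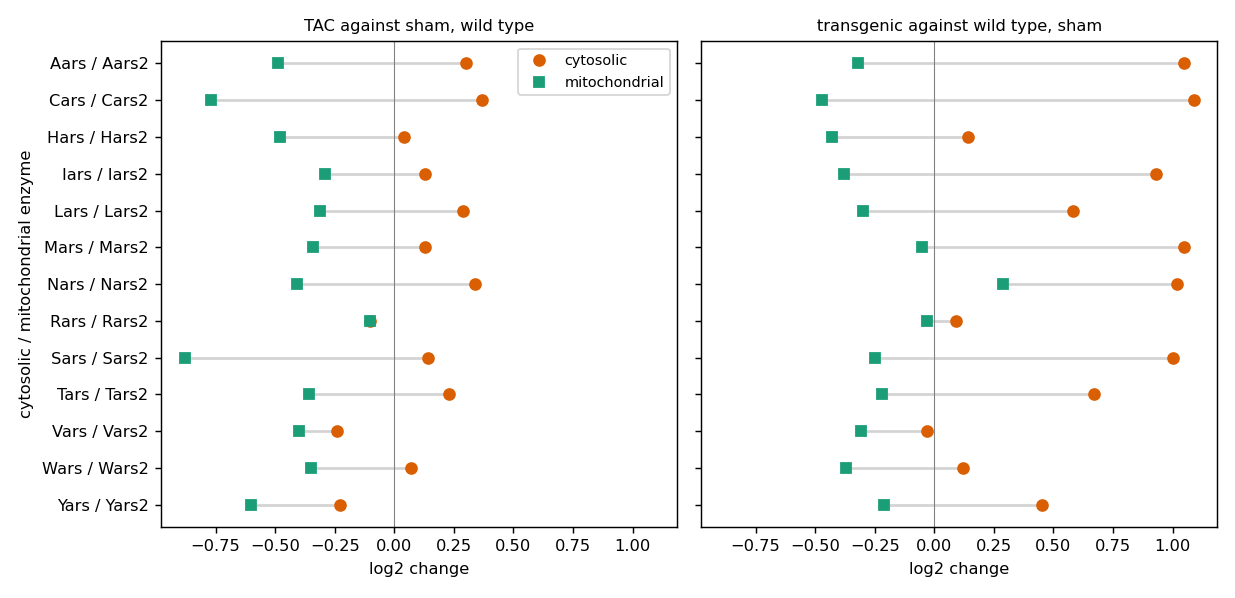
Log2 change of the cytosolic (circles) and mitochondrial (squares) gene in the 13 pairs that share a symbol apart from its ending. The left panel shows wild-type TAC against wild-type sham hearts, and the right panel transgenic against wild-type sham hearts. The cytosolic gene lies further right in 12 of 13 pairs on the left panel and in 13 of 13 on the right panel; no error is drawn here, and the standard errors stand in the plot of all 36 changes.

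Other genes of the same apparatus were counted from lists. In wild-type TAC against wild-type sham hearts, 12.5% of all genes fell and 8.7% rose. The 3 genes of the mitochondrial amidotransferase fell in wild-type TAC hearts, Gatb by 0.89 ± 0.13 (adjusted p = 0.00228), Qrsl1 by 0.71 ± 0.19 and Gatc by 0.62 ± 0.15, the 3 subunits of the enzyme that makes glutaminyl-tRNA in mitochondria, where no glutaminyl synthetase works. Of 9 mitochondrial translation factors, 5 fell and 0 rose, among them the elongation factor Tufm by 0.65 ± 0.17, the ribosome-recycling factor Gfm2 by 0.70 ± 0.15 and Mrrf by 0.47 ± 0.11. Of 6 cytosolic elongation factors, Eef1a1 rose by 0.82 ± 0.22 and Eef1a2, the form typical of adult muscle, fell by 0.66 ± 0.14. Of 7 scaffold and partner genes, the editing-domain gene Aarsd1 fell by 0.93 ± 0.12 and the other 6 did not pass. Wars, the tryptophanyl-tRNA synthetase and a gene known to be induced by interferon-gamma, had a change of 0.07 ± 0.18, while 5 of 10 interferon-induced genes rose, with a median of 0.77. Of 19 ATF4 program genes outside the synthetases, 2 rose, against 8.7% of all genes, and 0 fell. Mthfd2 rose by 2.79 ± 0.72 and Nupr1 by 2.32 ± 0.53, and the median of the 19 was 0.20. Mthfd2 was dim in wild-type sham hearts, at -4.27, -4.5 and -4.14.

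The tissue's composition markers moved in the same comparison, in which 12.5% of all genes fell and 8.7% rose. All 7 cardiomyocyte markers were well above background on all 12 arrays; 6 of 7 fell, and their summed linear level, in units of the array's 75th percentile, was 1400 to 1560 in wild-type TAC hearts and 2380 to 2480 in wild-type sham hearts. Of 7 fibroblast markers, 6 rose, with sums of 298 to 443 in wild-type TAC hearts and 88 to 140 in wild-type sham hearts. The part of these shifts in the fall of the mitochondrial enzymes was not tested, and in bulk tissue fewer cells of a type and less RNA per cell cannot be told apart. The array with the smallest mitochondrial shift, the second wild-type TAC array with a median of -0.15, had the lowest cardiomyocyte marker median of its group, -0.82 against -0.65 and -0.73 on the first and the third. On the first, the second and the third of these arrays the mitochondrial enzymes had medians of -0.44, -0.15 and -0.70. The fibroblast markers had 2.98, 2.58 and 3.61, skeletal muscle markers -0.93, -0.79 and -1.44, and smooth muscle markers 0.54, 0.43 and 1.17. Endothelial markers had 0.38, 0.70 and 0.58, and macrophage markers 0.15, 0.66 and -0.14. Skeletal muscle and macrophage markers had the order of the mitochondrial enzymes over these arrays, and fibroblast and smooth muscle markers had the reverse order. Cardiomyocyte and endothelial markers had neither. The relation of the marker lists to the mitochondrial enzymes was not tested.

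The second wild-type TAC array was the only array of its group to share a slide with wild-type sham arrays. Within that slide, 1 TAC array against 2 sham arrays, the median change was -0.13 for the mitochondrial enzymes, with 13 of 16 negative, -0.17 for all genes and 0.10 for the cytosolic enzymes. The genes that fell had values there of -0.53 for Cars2, -0.44 for Fars2, -0.73 for Sars2, -0.33 for Yars2, -0.16 for Hars2 and -0.43 for Kars. With slide as a fixed block 0 members passed; the changes were then -0.67 ± 0.21 for Cars2 (adjusted p = 0.102), -0.53 ± 0.20 for Fars2 (adjusted p = 0.139), -0.83 ± 0.18 for Sars2 (adjusted p = 0.0618) and -0.48 ± 0.13 for Kars (adjusted p = 0.0828). Without the second wild-type TAC array 9 mitochondrial enzymes passed, and without the third wild-type TAC array or the third wild-type sham array Cars2, Fars2 and Sars2 passed. The share of all genes called in these fits is not given here, so the counts have no background beside them.

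In transgenic hearts the question was the same, and 0 of the 36 enzymes passed for TAC against sham; 0 of all genes (0%) did. At an unadjusted p under 0.05, 0 of the 36 genes stood in either direction, against 3.5% of all genes higher and 2.72% lower. The mitochondrial changes had a median of 0.10, with 11 of 16 positive, and the cytosolic ones a median of -0.21, with 17 of 20 negative, against a median of -0.01 and 49.2% positive for all genes. All TAC arrays lay above all sham arrays for 2 enzymes, Rars2 at 0.23 ± 0.12 and Tars2 at 0.22 ± 0.16, against 4.52% of all genes, and below them for 0, against 3.92%. Gars had levels of 4.94, 5.53 and 5.30 in transgenic TAC hearts, against 5.06, 5.88 and 6.65 in transgenic sham hearts. The arrays overlapped and the sham arrays were widely spread. The change of Gars was -0.61 ± 0.33 (adjusted p = 0.804). Sars, seryl, and Aars, alanyl, had changes of -0.55 ± 0.30 and -0.51 ± 0.31. The other 19 ATF4 program genes had a median of -0.81, with 18 of 19 negative and 0 passing. The cytosolic enzyme was the more positive in 1 of 13 pairs, with a median difference of -0.35. Within the 1 slide that held a transgenic TAC and a transgenic sham array, 19 of 20 cytosolic values were positive instead, with a median of 0.18; that sham array, the first, was the one with the lowest levels of its group for 18 of the 20.

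The test of the difference between the 2 TAC responses, transgenic minus wild type, passed for 2 of 16 mitochondrial enzymes, both higher, against 4.18% of all genes higher and 2.9% lower (7.08% in either direction). They were Cars2, at 0.88 ± 0.19 (adjusted p = 0.0296), and Fars2, at 0.79 ± 0.19 (adjusted p = 0.0387). Cars2 had levels of 1.47, 1.24 and 1.37 in transgenic TAC hearts, against 1.31, 1.18 and 1.28 in transgenic sham hearts; its TAC change was 0.11 ± 0.13 there and -0.77 ± 0.13 in wild-type hearts. Fars2 had levels of 4.06, 3.89 and 4.08 in transgenic TAC hearts, against 3.89, 3.90 and 3.88 in transgenic sham hearts, with a TAC change of 0.12 ± 0.13 there and -0.66 ± 0.13 in wild-type hearts. The second probe of Cars2 gave 0.74 ± 0.23 (adjusted p over all probes 0.0832) and did not pass. For Iars2, whose brighter probe gave 0.40 ± 0.19 (adjusted p = 0.215), the second probe gave 0.60 ± 0.15 (adjusted p over all probes 0.0414).

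The median of this difference was 0.48 over the mitochondrial enzymes, 15 of 16 of them positive, -0.27 over the cytosolic enzymes, 8 of 20 of them positive, and 0.10 over all genes, 56.7% of them positive; the mitochondrial value was the more positive in all 13 pairs. At an unadjusted p under 0.05, 8 mitochondrial and 2 cytosolic enzymes were higher, against 15.7% of all genes, and 0 were lower, against 9.81%. Of the cytosolic enzymes 0 of 20 passed. Cars, Gars and Aars had -0.82 ± 0.44, -0.81 ± 0.46 and -0.81 ± 0.43 (adjusted p = 0.275, 0.31 and 0.276), and Kars had 0.44 ± 0.15 (adjusted p = 0.1). In the same test Gatb was higher by 0.97 ± 0.18, Gfm2 by 0.99 ± 0.22 and Aarsd1 by 0.75 ± 0.17. Mthfd2, dim in wild-type sham hearts, was lower, at -4.06 ± 1.01. Of 7 cardiomyocyte markers 4 were higher, and of 7 fibroblast markers 5 were lower, against 4.18% of all genes higher and 2.9% lower. The part of these genes in the result was not tested. The 2 mitochondrial calls were sensitive to single arrays: over the 12 fits that each left out 1 array, Cars2 passed in 4 and Fars2 in 2, and with slide as a fixed block the values were 0.86 ± 0.29 (adjusted p = 0.188) and 0.80 ± 0.27 (adjusted p = 0.189).

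**Figure D3:**
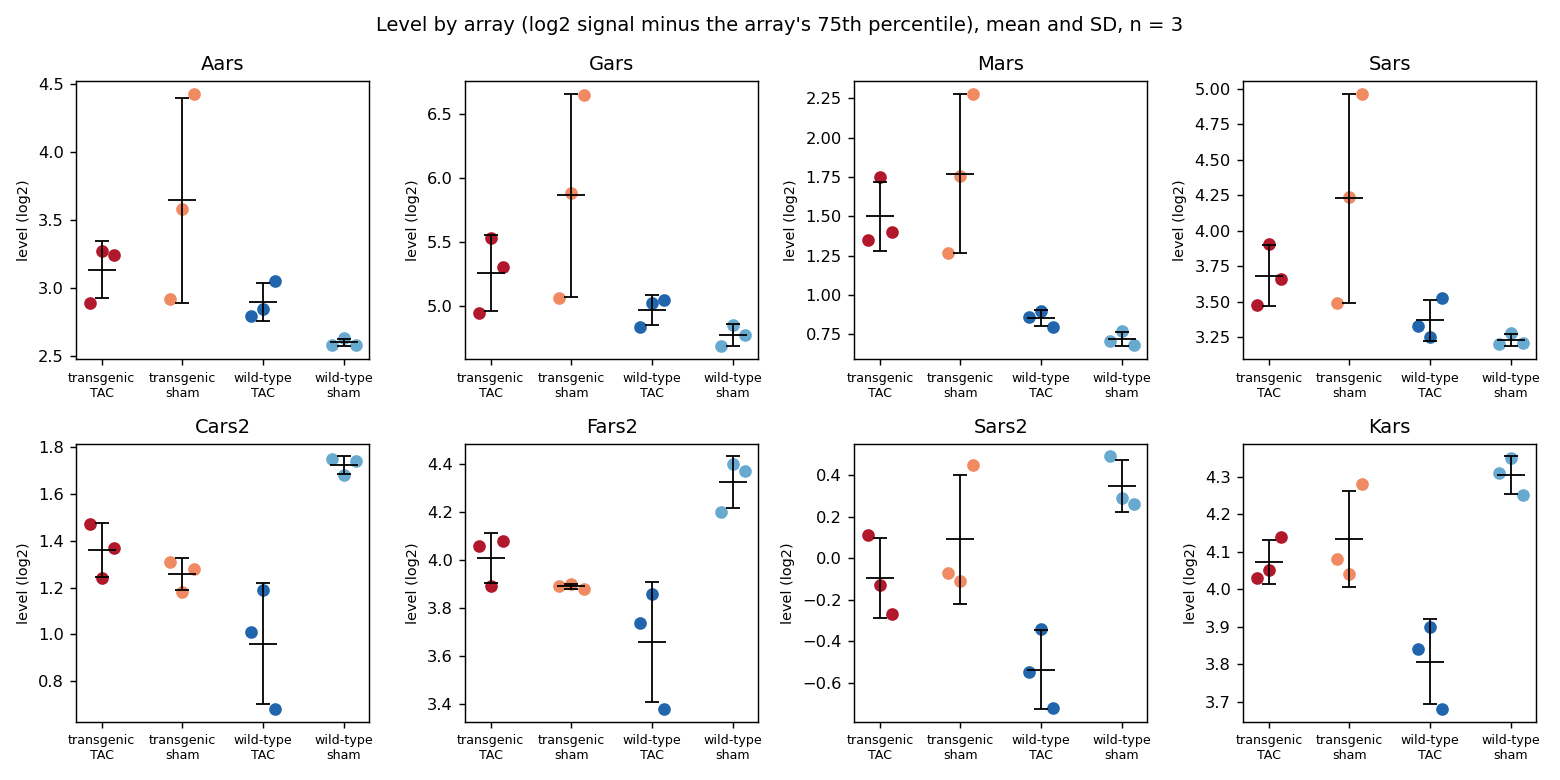
Level (vertical, log2 processed signal minus the array's 75th percentile) of 4 cytosolic enzymes listed as ATF4 targets (top) and of Cars2, Fars2, Sars2 and Kars (bottom), with each point 1 array and bars the mean and SD of 3 arrays; the vertical scales differ between panels. The 3 transgenic sham arrays are spread widely in the top panels, from 2.92 to 4.43 for Aars, and in each bottom panel the wild-type TAC group has the lowest mean.

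Transgenic and wild-type hearts were then compared after sham surgery, which asks how the genotypes differed without pressure overload. Of the 36 enzymes 0 passed in either direction at the adjusted threshold, against 0.774% of all genes higher and 0.663% lower (1.44% in either direction), yet the cytosolic and mitochondrial sets again lay apart, with medians of 0.52 and -0.28 against -0.05 for all genes. In 8 of the 20 cytosolic enzymes all transgenic arrays lay above all wild-type arrays, against 8.06% of all genes, and the same 8 had an unadjusted p under 0.05, against 6.48%. All 8 (Aars, Cars, Gars, Iars, Mars, Nars, Sars and Tars) belong to the 12 listed ATF4 targets, whose median change was 0.96, with 12 of 12 positive, against 44% of all genes. The median of the other 8 cytosolic enzymes was 0.01. The list was chosen with earlier results of these data known, so this split describes the values and is not a test.

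Mars, the methionyl-tRNA synthetase, had levels of 1.27, 1.76 and 2.28 in transgenic sham hearts, against 0.71, 0.77 and 0.68 in wild-type sham hearts. Its change of 1.05 ± 0.22, a 2.07-fold difference, stood next to the threshold (adjusted p = 0.051). Aars had levels of 2.92, 3.58 and 4.43 in transgenic sham hearts, against 2.58, 2.63 and 2.58 in wild-type sham hearts, a change of 1.05 ± 0.31 (adjusted p = 0.126). Its dimmer second probe, well above background on 4 arrays, gave 0.26 ± 0.92.

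Gars had levels of 5.06, 5.88 and 6.65 in transgenic sham hearts, against 4.68, 4.85 and 4.77 in wild-type sham hearts, a change of 1.10 ± 0.33 (adjusted p = 0.132). Cars had levels of 2.00, 2.77 and 3.56 in transgenic sham hearts, against 1.62, 1.73 and 1.71 in wild-type sham hearts, a change of 1.09 ± 0.31 (adjusted p = 0.12). In each of these genes the transgenic sham arrays were far apart and the wild-type sham arrays close together. Iars, isoleucyl, had levels of 2.30, 3.05 and 3.58 in transgenic sham hearts, against 1.97, 1.97 and 2.20 in wild-type sham hearts, a change of 0.93 ± 0.28 (adjusted p = 0.133). Tars, threonyl, had levels of 1.85, 2.17 and 2.83 in transgenic sham hearts, against 1.59, 1.61 and 1.64 in wild-type sham hearts, a change of 0.67 ± 0.22 (adjusted p = 0.162). In both genes, too, the first transgenic sham array lay closest to the wild-type sham arrays. Nars, asparaginyl, and Sars had changes of 1.02 ± 0.30 and 1.00 ± 0.30 (adjusted p = 0.131 and 0.133). Of the other 4 listed targets, Eprs, the joined glutamyl and prolyl enzyme, had 0.68 ± 0.32, Lars, leucyl, 0.58 ± 0.28, Yars, tyrosyl, 0.45 ± 0.64 and Wars 0.12 ± 0.18, all with overlapping arrays.

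The spread came from the transgenic sham arrays themselves. For the listed ATF4 targets the median SD within a group was 0.71 in transgenic sham hearts, 0.23 in transgenic TAC hearts, 0.11 in wild-type TAC hearts and 0.06 in wild-type sham hearts, against 0.32, 0.20, 0.20 and 0.16 for all genes. Relative to the wild-type sham mean their median was 0.25, 0.99 and 1.54 on the 3 transgenic sham arrays. The array with 1.54 was the only array used from its slide, and the part of the slide in its levels was not tested. In the fit with array weights it had a weight of 0.25, the lowest of the 12 arrays. The third array was the highest of all 12 for 11 of the 12 listed targets and for 5 of the 8 other cytosolic enzymes, but for 1 of the 16 mitochondrial enzymes and 11.7% of all genes. The first was the lowest of the 3 for 12 of the 12 listed targets, 4 of the 16 mitochondrial enzymes and 28% of all genes.

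The calls changed with single arrays and also with the filter on probes. Without the first transgenic sham array 7 cytosolic enzymes passed (Aars, Cars, Gars, Iars, Mars, Nars and Sars), with changes of 1.27 to 1.5 and adjusted p of 0.00977 to 0.0299. Without the second, the array with few probes above background, the same 7 genes had changes of 0.89 to 1.09 and 0 passed, and without the third they had 0.63 to 0.80 and 0 passed. Under a filter that kept probes detected above background by all 12 arrays, these 7 genes passed, with adjusted p of 0.0131 to 0.0486. The share of all genes called in these alternative fits is not given here, so a gain may not be particular to the synthetases. With slide as a fixed block their changes were 0.73 to 0.90 and 0 passed, and within the 1 slide that held both groups, 1 transgenic array against 2 wild-type arrays, the medians were 0.30 for the cytosolic enzymes, with 15 of 20 positive, -0.34 for the mitochondrial enzymes, with 14 of 16 negative, and -0.08 for all genes.

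**Figure D4:**
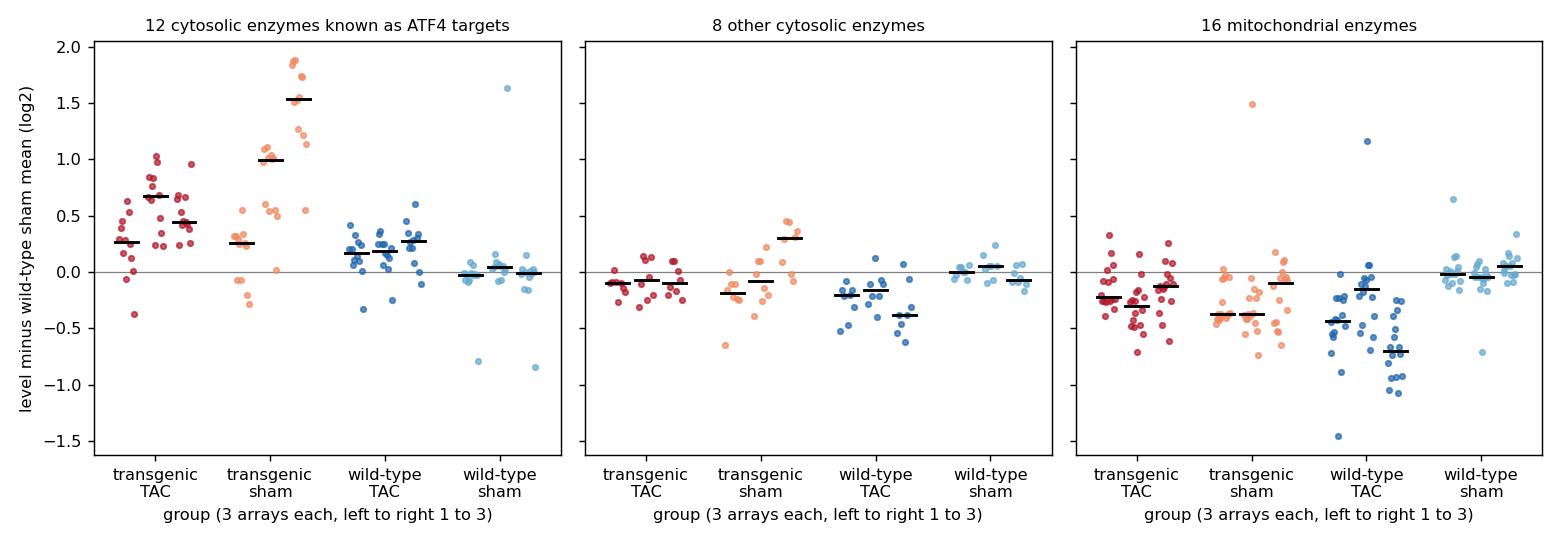
Level of each gene on each array minus its wild-type sham mean (vertical, log2), for the 12 cytosolic enzymes listed as ATF4 targets, the 8 other cytosolic enzymes and the 16 mitochondrial enzymes; each column of points is 1 array, each point 1 gene and each bar the median of the genes. The bars of the 3 transgenic sham arrays lie at 0.25, 0.99 and 1.54 in the left panel, and the bars of the wild-type TAC arrays lie between -0.70 and -0.15 in the right panel; the points far from their column are the dim genes Yars (left) and Nars2 (right).

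The mitochondrial enzymes were on the other side. In transgenic against wild-type sham hearts 15 of 16 changes were negative, 9 genes had all transgenic arrays below all wild-type arrays, against 14.2% of all genes, and 4 had an unadjusted p under 0.05 in that direction, against 11%. Those 4 were Cars2 at -0.47 ± 0.13 (adjusted p = 0.12), Fars2 at -0.43 ± 0.13 (adjusted p = 0.143), Hars2 at -0.43 ± 0.14 (adjusted p = 0.146) and Iars2 at -0.38 ± 0.13 (adjusted p = 0.193). Cars2 had levels of 1.31, 1.18 and 1.28 in transgenic sham hearts, against 1.75, 1.68 and 1.74 in wild-type sham hearts, without overlap. The summed cardiomyocyte markers were 1690 to 1900 in transgenic sham hearts and 2380 to 2480 in wild-type sham hearts, with 0 of 7 markers passing; their part was not tested. The cytosolic enzyme was the more positive in 13 of 13 pairs, with a median difference of 0.88, from 0.12 for Rars and Rars2 to 1.56 for Cars and Cars2. Gatb, at -0.55 ± 0.13 (adjusted p = 0.0639), and all 9 mitochondrial translation factors, with a median of -0.27 and 0 passing, were on the same side of 0 as the mitochondrial enzymes.

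Most other ATF4 program genes were also higher in transgenic sham hearts. Of 19 measured outside the synthetases, 4 rose and 0 fell in transgenic against wild-type sham hearts, against 0.774% and 0.663% of all genes. Their median was 0.75, with 16 changes positive and 3 negative, against 44% of all genes positive. Asns, asparagine synthetase, had levels of 3.00, 4.08 and 5.43 in transgenic sham hearts, against -1.37, -0.78 and -1.19 in wild-type sham hearts, and rose by 5.28 ± 0.67 (adjusted p = 0.00632). The serine and folate pathway genes Mthfd2, Phgdh and Psat1 rose by 6.15 ± 0.72, 4.64 ± 0.60 and 3.37 ± 0.64. Mthfd2 had levels of 0.4, 2.11 and 3.04 in transgenic sham hearts, against -4.27, -4.5 and -4.14 in wild-type sham hearts. The latter lie near the wild-type sham mean of the dim gene Yars, -4.61, so the size of its change is uncertain. Atf4 itself had levels of 4.05, 5.67 and 6.12 in transgenic sham hearts, against 4.34, 4.75 and 4.02 in wild-type sham hearts, which overlapped (0.91 ± 0.47, adjusted p = 0.352). Xpot, the exporter of tRNA from the nucleus, had levels of -0.05, 0.46 and 0.88 in transgenic sham hearts, against -0.65, -0.49 and -0.55 in wild-type sham hearts, a change of 0.99 ± 0.21 (adjusted p = 0.0567). The order of the 3 transgenic sham arrays in Asns, Atf4 and Xpot was that of the cytosolic synthetases, the first lowest and the third highest. Not all of the 19 program genes shared this order, and in some the third array was the lowest of the 3.

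**Figure D5:**
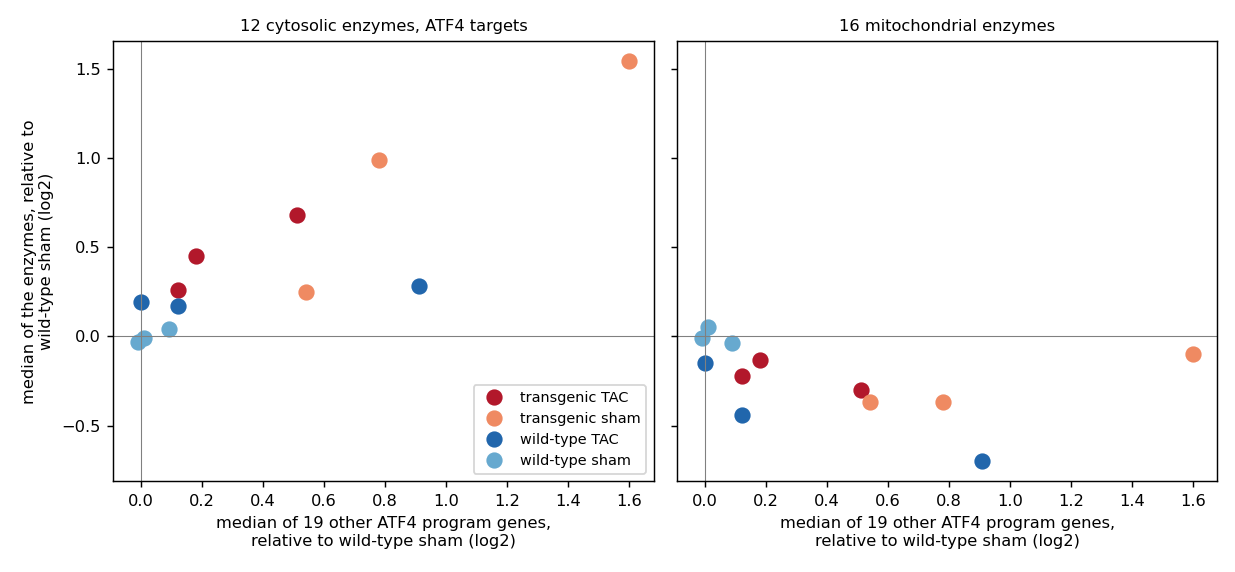
Median over 19 ATF4 program genes outside the synthetases (horizontal) against the median over the 12 cytosolic enzymes listed as ATF4 targets (left, vertical) or the 16 mitochondrial enzymes (right, vertical), all relative to the wild-type sham mean (log2), with 1 point for each of the 12 arrays, which share their scaling and slides. The third transgenic sham array stands highest on both axes on the left, at 1.6 and 1.54, and the third wild-type TAC array, at 0.91 on the horizontal axis, has 0.28 for the cytosolic and -0.70 for the mitochondrial enzymes.

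After TAC, transgenic hearts were again compared with wild-type hearts, and 0 of the 36 enzymes passed, against 2.14% of all genes higher and 1.86% lower (4% in either direction). Here the 2 sets lay close together: 19 of 20 cytosolic and 15 of 16 mitochondrial changes were positive, against 55.1% of all genes, with medians of 0.24 and 0.28 against 0.05 for all genes, and the cytosolic enzyme was the more positive in 5 of 13 pairs. Mars had levels of 1.35, 1.75 and 1.40 in transgenic TAC hearts, against 0.86, 0.90 and 0.80 in wild-type TAC hearts, without overlap, a change of 0.65 ± 0.22 (adjusted p = 0.119). Sars2 had levels of 0.11, -0.13 and -0.27 in transgenic TAC hearts, against -0.55, -0.34 and -0.72 in wild-type TAC hearts, a change of 0.44 ± 0.18 (adjusted p = 0.175). In 5 cytosolic and 5 mitochondrial enzymes all transgenic arrays lay above all wild-type arrays, against 19.3% of all genes, and in 0 all lay below, against 13.6%. At an unadjusted p under 0.05, 4 cytosolic and 6 mitochondrial enzymes were higher, against 13.1% of all genes, and 0 lower, against 9.4%. Fibroblast markers were lower in 4 of 7 cases, with sums of 135 to 170 in transgenic TAC hearts and 298 to 443 in wild-type TAC hearts, and their part was not tested. Within the 1 slide that held both groups, 1 transgenic array against 2 wild-type arrays, all 36 values were positive, with medians of 0.26 for the cytosolic enzymes, 0.46 for the mitochondrial enzymes and 0.12 for all genes.

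The cytosolic enzymes were also grouped by structure, which did not follow the split by ATF4. The 8 synthetases of the multisynthetase complex, which are held together by Aimp1, Aimp2 and Eef1e1, had a median change of 0.34 in transgenic against wild-type sham hearts and 0.01 for TAC in wild-type hearts. Within the complex Mars and Iars had changes of 1.05 ± 0.22 and 0.93 ± 0.28 in sham hearts, whereas Dars, at -0.31 ± 0.18, and Kars, at -0.17 ± 0.10, were negative. The class I and class II enzymes, 2 unrelated folds, had medians of 0.45 and 0.43 in transgenic against wild-type sham hearts.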

How the data were processed

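Per the labels, RNA was hybridised to 12 single-colour Agilent arrays; per the file headers the spot intensity values come from Feature Extraction 10.7.3.1, and the deposited processed signal is background-subtracted and detrended but not scaled between arrays. The deposited value table is in log2 units; its values follow log2 signals scaled per array and centred per probe, with column medians of -0.095 to 0.119 and r of at least 0.999 against them. The submitters' processing notes name RMA, without its role. A time label gives 0 for sham samples; day 21 was taken from the protocol.

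Control and outlier spots were dropped, spots averaged, and each array's 75th percentile over its 43020 non-control spots subtracted. Accessions named 26424 of 39429 probes through the GRCm38.p6 gene table. Probes were kept if 3 or more of the 12 arrays had them well above background, and the brightest probe per gene used. limma 3.58.1 (R 4.3.3) fitted a mean per group over all 12 arrays, two-sided, with Benjamini-Hochberg adjustment over 25321 genes; the code was tested on simulated data. The number of arrays limits the precision. Replicate numbers were not taken as pairs, since 4 of 18 same-numbered array pairs had correlations over 0.1. The members and the gene lists were chosen with earlier results of these data known, and all 36 members and up to 3 genes with the smallest p of each other list were eligible to be named; Psat1 and Atf4 were named beyond that, after their values were seen; 1 gene of a list is not reported here. Normalization, background correction, value source, filter, outlier, probe, variance, weighting, block, sample and leave-one-out alternatives are given in the closing section.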

Additional observations from a re-analysis of the deposited data

Results flagged for a closer look

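The TAC response differed between genotypes for 2 enzymes by the test of the difference itself, the interaction of limma: Cars2, where the transgenic response minus the wild-type response was 0.88 on the log2 scale, and Fars2, where it was 0.79. All 3 wild-type TAC arrays were below all 3 wild-type sham arrays for both genes, and the transgenic TAC and sham arrays overlapped.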

How the results depend on the processing

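Calls kept their direction: 0 results called at the chosen settings or in an alternative reversed under the 26 alternatives run (25 for the interaction). Genes without a call were not counted for a change of sign. With slide as a fixed block the cytosolic median for TAC in transgenic hearts was 0.11, against -0.21 at the chosen settings. For the interaction it was 0.02, against -0.27. The cytosolic minus mitochondrial difference of medians ranged from 0.35 to 0.63 for TAC in wild-type hearts, from -0.58 to -0.13 for TAC in transgenic hearts, from 0.42 to 1.06 for genotype in sham hearts, from -0.18 to 0.05 for genotype in TAC hearts and from -0.99 to -0.56 for the interaction. Of single-gene results, 4506 kept their side of the threshold, 61 gained a call and 52 lost one. The counts moved more. The share of all genes called under each alternative is not given beside them, so a gain or loss may not be particular to the synthetases. Mitochondrial enzymes lower with TAC in wild-type hearts numbered 5 at the chosen settings, 3 with median scaling, 2 with normexp, 12 with array weights, 3 with the compared groups alone, 0 with slide as a fixed block, and 3 to 9 when each array was left out in turn. Cytosolic enzymes lower there numbered 1 as reported, 0 with normexp, 3 with probes above background on all 12 arrays, 2 with a trended robust variance, 5 with array weights, 0 with slide fixed, and 1 to 2 with an array left out; 1 was higher with the compared groups alone. Mitochondrial enzymes higher in the interaction numbered 2 as reported, 0 with quantile normalization, 0 with median scaling, 0 with normexp, 0 without the filter, 5 with the filter on all 12 arrays, 0 with the replicate block, 0 with slide fixed, and 0 to 4 with an array left out. Cytosolic enzymes in the interaction were higher in 1 case each with the filter on all 12 arrays and with a trended robust variance, higher in 0 to 1 and lower in 0 to 1 with an array left out. In sham hearts 0 cytosolic enzymes were higher in transgenic mice as reported, 1 with quantile normalization, with the deposited table, with a trended robust variance and with slide as a random block, 7 with the filter on all 12 arrays, and 0 to 7 with an array left out; 2 mitochondrial enzymes were lower with that filter. In TAC hearts that filter gave 1 cytosolic and 1 mitochondrial enzyme higher in transgenic mice, array weights 1 and 2, and leaving out an array 0 to 1 cytosolic. The cause of these shifts was not tested. Normexp moved the median of all genes for TAC in wild-type hearts to 0.25, with 0 for the cytosolic and -0.35 for the mitochondrial enzymes. Same-numbered arrays had correlations of -0.39 to 0.22, so the replicate block was not used for pairs. Dim probes limit what Yars and Nars2 can show.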
